A study of Saccharomyces cerevisiae EC1118 with 12 samples.

Results

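The 38 genes described here encode the enzymes that carry sugar through glycolysis to pyruvate, decarboxylate pyruvate, and make or use glycerol and acetate, together with the glycolytic activators GCR1 and GCR2. They were taken from a named list, matched by gene symbol to the annotation of the array, and make up 38 of the 5449 genes measured. All 38 were found, each with 1 probe set. They fall into 7 branches, with 4 genes of sugar phosphorylation, 7 of upper glycolysis, 10 of lower glycolysis, 3 of pyruvate decarboxylation, 2 regulators, 6 of glycerol metabolism and 6 of acetate metabolism.

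The RNA came from EC1118, a commercial wine strain of Saccharomyces cerevisiae, kept at steady state in nitrogen-limited chemostats. The medium was a modified synthetic grape must (MS300) at pH 3.5, diluted at 0.1 per hour, and all 4 groups share the strain, the medium and the nitrogen limitation. The anaerobic group was sparged with nitrogen, and the other groups with mixtures of nitrogen and 1%, 5% or 20% oxygen. Each group has 3 Affymetrix arrays, and the labels do not say whether these came from separate chemostats, so the p-values describe how far these arrays scatter, which may be technical variation only. The titles give dissolved oxygen of 0, 1.2, 2.7 and 5 micromolar and the condition text 0, 0.8, 4 and 11 micromolar for these groups, which are therefore named by the gas. All levels are log2 values, and a difference of 1 is a 2-fold difference.

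Yeast on abundant sugar sends most pyruvate through pyruvate decarboxylase to acetaldehyde and ethanol, which returns the NADH of glycolysis to NAD. Glycerol formation takes up the surplus NADH that biosynthesis leaves when no oxygen is present, and acetaldehyde dehydrogenases turn part of the acetaldehyde into acetate, a source of cytosolic NADPH and acetyl-CoA. In wine, glycerol, acetate and ethanol are among the main products of these branches.

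As a check of the oxygen labels, HEM13, a heme synthesis gene repressed by heme in the presence of oxygen, was lower at 1% (-2.52 ± 0.41, SE), 5% (-3.49 ± 0.41) and 20% oxygen (-4.63 ± 0.41) than in anaerobic cultures. All 5 hypoxic genes checked had lower means than in anaerobic cultures at each oxygen level. At an adjusted p under 0.05 (limma), HEM13 was the only 1 of them called at 1%, 4 were called at 5% and all 5 at 20% oxygen. The 1% arrays overlapped the anaerobic arrays for DAN1 and AAC3. Within the anaerobic group all 5 were lowest on array 1, by little for DAN1 and TIR1. HEM13 read 10.44 there against 11.78 and 11.22 on its partners, and AAC3 8.24 against 9.59 and 9.25. That AAC3 level lay below 1% oxygen arrays 1 and 2 (8.31 and 8.49). Arrays correlated with the mean of their group partners at 0.94 to 0.992, and the lowest value belonged to 1% oxygen array 3, on which 4 of the 38 genes and 18.8% of all genes lay at least 1 from the mean of their group partners. Anaerobic array 1 had 6 of the 38 genes at least 1 above the mean of the other 2 anaerobic arrays (EMI2, PDC6, GUT2, ALD3, ALD4 and ALD6) and none as far below it, where 4.68% of all genes lay that far away in either direction. On 20% oxygen arrays 1 and 3, 6 of the 38 genes each lay that far from the mean of their partners, beside 5.82% and 5.54% of all genes. The 6 haploid mating genes checked had mean levels of 3.60 to 3.85 on the anaerobic arrays, 3.54 to 4.66 at 1%, 4.25 to 4.42 at 5% and 4.23 to 4.40 at 20% oxygen, none at 0. STE2 was the only 1 of them called higher in all 3 comparisons with the anaerobic group, and STE3 was called higher at 5% (1.49, adjusted p = 0.0219, limma). That makes 1, 2 and 1 of the 6 called at 1%, 5% and 20%, beside 16.4%, 16.3% and 7.91% of all genes. The part of such differences in the results below was not tested.

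Few of the 38 genes were called different from their anaerobic level. At 1% oxygen 2 of 38 were called lower and none higher by limma at a Benjamini-Hochberg adjusted p under 0.05. Of all genes, 16.4% were called in this comparison, 11.2% lower and 5.27% higher. That share moved with single arrays. Leaving out anaerobic array 1, 2 or 3 took it to 8.13%, 0.661% and 3.16%, and leaving out 1% oxygen array 3 took it to 5.91%. At 5% oxygen 3 of 38 were called lower and none higher, beside 16.3% of all genes, 11% lower and 5.32% higher. At 20% oxygen none of the 38 was called, where 7.91% of all genes were, and 8 of the 38 had an unadjusted p under 0.05, against 25% of all genes. The share of all genes called ran from 7.34% without anaerobic array 2 to 23.9% without 1% oxygen array 3 at 5%, and from 2.81% to 13.9% without the same arrays at 20%. The called genes were CDC19, the main pyruvate kinase, and GPD1, a glycerol-3-phosphate dehydrogenase, at both 1% and 5%, and GUT1, the glycerol kinase, at 5%. The 3 comparisons share the anaerobic arrays.

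**Figure D1:**
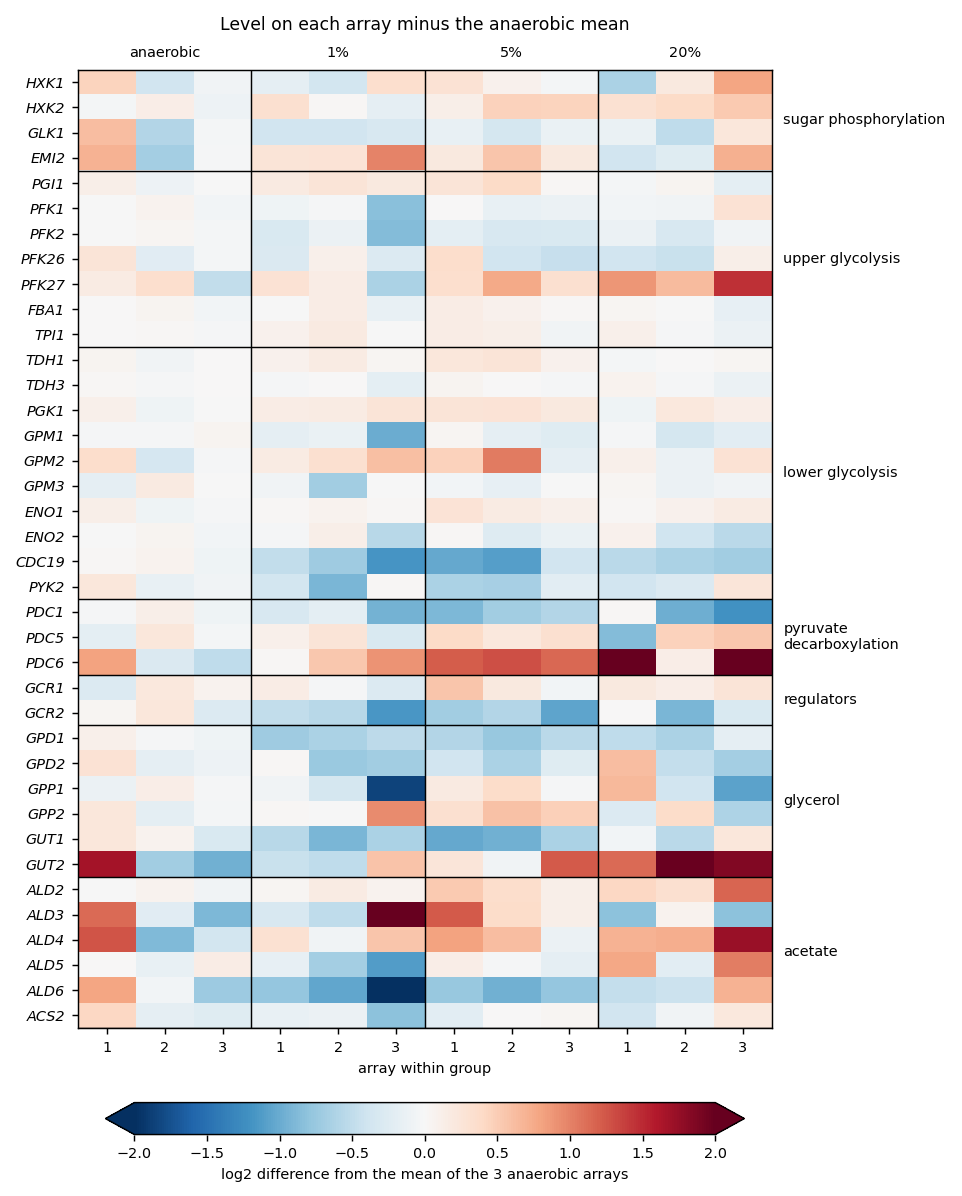
Heat map of the 38 genes (rows, grouped by branch) on the 12 arrays (columns, 3 per oxygen group). Colour gives the log2 level minus the mean of the 3 anaerobic arrays and is capped at 2 in either direction. The rows of FBA1, TPI1, TDH1, TDH3 and ENO1 stay pale. Strong colours include PDC6 on 20% arrays 1 and 3, GUT2 at 20% oxygen and on anaerobic array 1, and ALD3, ALD6 and GPP1 on 1% array 3.

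The median difference of the 38 genes was -0.10 at 1%, 0.07 at 5% and -0.04 at 20% oxygen, beside 0.00, 0.07 and 0.05 over all genes. Their median difference in either direction was 0.32, 0.29 and 0.17, beside 0.43, 0.38 and 0.31 over all genes. All 3 arrays lay above all anaerobic arrays for 2 of the 38 genes and below them for 9 at 1% oxygen, where this held for 19.9% and 24.6% of all genes. At 5% these counts were 5 above and 9 below, beside 25.5% and 22.2% of all genes, and at 20% 3 above and 3 below, beside 18.3% and 15.9%. The 95% interval of the difference lay inside a 2-fold change either way for 25 of 38 genes at 1%, 20 at 5% and 28 at 20%. This held for 47.9%, 51.2% and 58.4% of all genes. Between the oxygenated groups none of the 38 was called for 5% against 1% or for 20% against 5%, where 0% of all genes were called in either step, and the unadjusted p was under 0.05 for 0 and 1 of the 38 (4.86% and 2.73% of all genes). The moderated F test for any difference over the 4 levels called none of the 38, where 10.1% of all genes were called, with 9 of the 38 at an unadjusted p under 0.05, against 29.7% of all genes. The smallest adjusted p in that test belonged to GUT1 (0.0564), followed by GPD1 (0.0771) and CDC19 (0.0786).

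**Figure D2:**
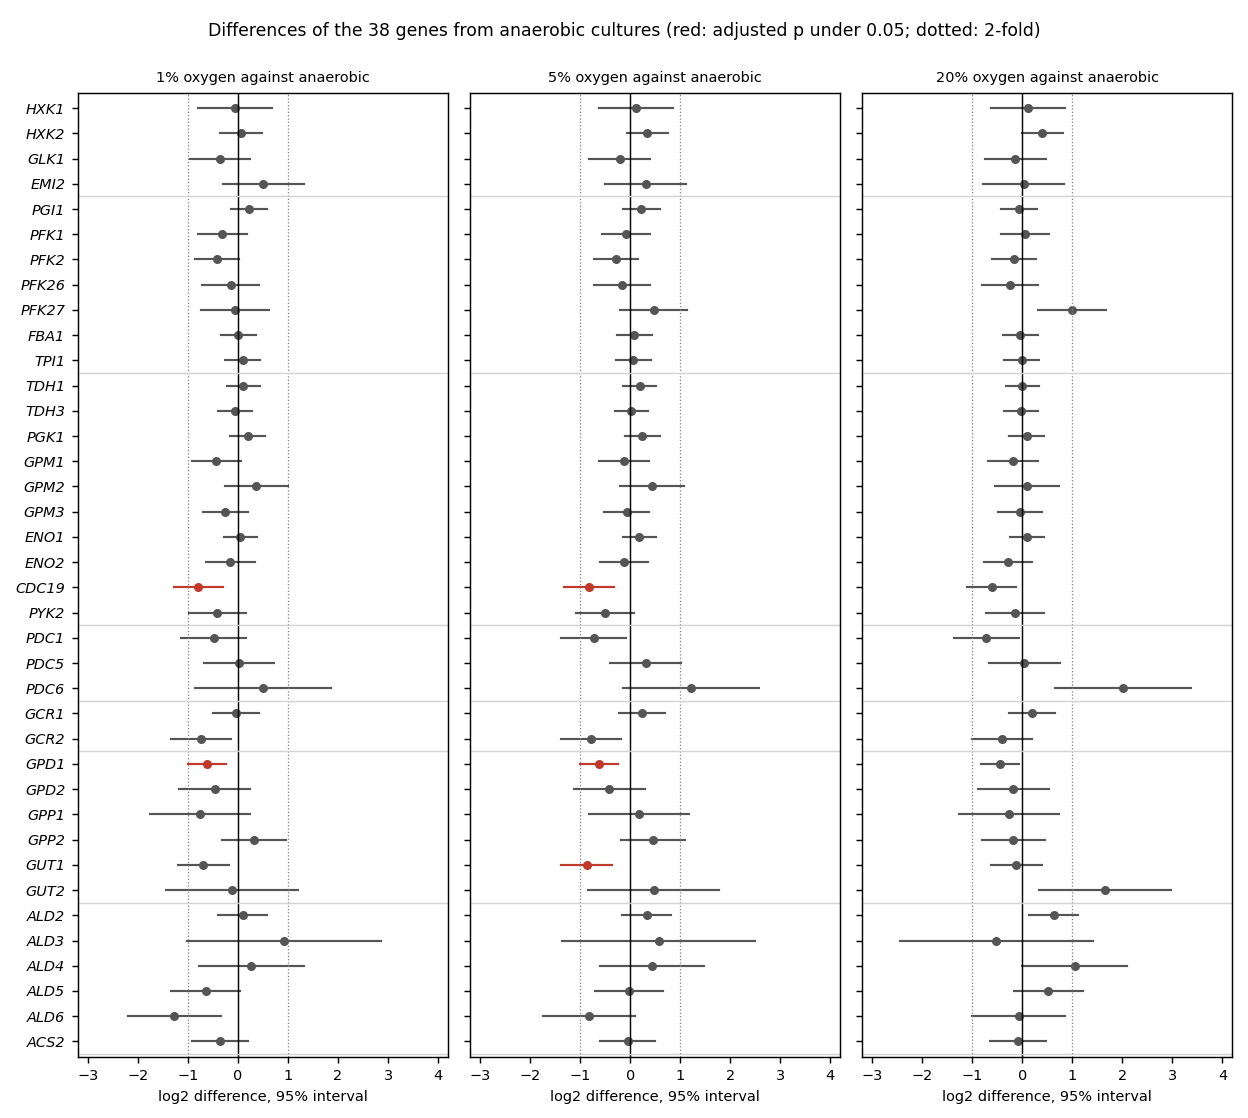
Difference of each gene from the anaerobic group (points, log2) with its 95% interval (lines) at 1%, 5% and 20% oxygen. Red marks an adjusted p under 0.05 and dotted lines a 2-fold difference. Red appears for CDC19 and GPD1 at 1% and 5% and for GUT1 at 5%, and the widest intervals belong to ALD3, PDC6 and GUT2.

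Sugar phosphorylation is the entry step, in which the hexokinases HXK1 and HXK2 and the glucokinase GLK1 phosphorylate glucose; EMI2 is a close relative of GLK1. None of the 4 genes was called in any comparison. Their differences from anaerobic ranged from -0.36 (GLK1 at 1%) to 0.50 (EMI2 at 1%), and the smallest adjusted p was 0.209. Both ends of that range moved with single arrays, since leaving out anaerobic array 1 or 2 put GLK1 at -0.05 and -0.65 and EMI2 at 0.85 and 0.16. EMI2 was at 0.26 without 1% oxygen array 3. HXK2, the hexokinase that predominates on glucose, had group means that rose in order from 11.16 ± 0.13 (SD, n = 3) in anaerobic cultures over 11.22 ± 0.25 and 11.50 ± 0.20 to 11.56 ± 0.12 at 20% oxygen. Its 3 arrays at 20% lay above the 3 anaerobic arrays, with a difference of 0.40 and a 95% interval of -0.01 to 0.82. Over the 38 genes the means rose in order for 4 and fell in order for 1, which is 10.5% and 2.63% beside 8.46% and 3.19% of all genes.

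In upper glycolysis, PGI1 (phosphoglucose isomerase), PFK1 and PFK2 (the subunits of phosphofructokinase), FBA1 (aldolase) and TPI1 (triose phosphate isomerase) were not called. FBA1 and TPI1 were the steadiest of these, with levels of 12.71 to 13.02 and 12.71 to 13.01 over all 12 arrays. PFK1 and PFK2 were both lowest on 1% oxygen array 3, at 10.38 and 10.56, against 11.07 to 11.51 and 11.10 to 11.46 on the other 11 arrays. PFK2 lay below the anaerobic arrays on every array of the other groups, by -0.43 at 1%, -0.28 at 5% and -0.17 at 20%, and none of these was called (adjusted p = 0.151, 0.372 and 0.674, limma).

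PFK26 and PFK27 make fructose 2,6-bisphosphate, the activator of phosphofructokinase. PFK26 differed from anaerobic by no more than -0.24. PFK27 read 6.90, 7.07 and 6.24 on the anaerobic arrays, 7.03, 6.88 and 6.10 at 1%, 7.07, 7.49 and 7.05 at 5% and 7.62, 7.37 and 8.20 at 20% oxygen. All 3 arrays at 20% stood above all anaerobic arrays, with a difference of 0.99 ± 0.31 (95% interval 0.32 to 1.67), which missed the threshold (adjusted p = 0.0708, limma). It passed without 1% oxygen array 3 (adjusted p = 0.0309), an array that does not enter the difference but does enter the estimate of the spread.

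Lower glycolysis runs from glyceraldehyde-3-phosphate dehydrogenase (TDH1, TDH3) over phosphoglycerate kinase (PGK1), phosphoglycerate mutase (GPM1) and enolase (ENO1, ENO2) to pyruvate kinase. Together with PGI1, PFK1, PFK2, FBA1 and TPI1 these make 11 genes of the glycolytic trunk, and none was called. Their differences from anaerobic ranged from -0.44 (GPM1 at 1%) to 0.24 (PGK1 at 5%), and the outer bounds of all their 95% intervals were -0.93 and 0.59, so a 2-fold difference lay outside every one of these intervals. Without 1% oxygen array 3 the difference of GPM1 was -0.16. TDH1 had the smallest spread of the 38 genes, with a within-group SD of 0.07. TDH3 lay at 13.41 to 13.68, close to the highest value on any array (13.4 to 13.7), and whether the scale of the arrays limits differences at such levels was not tested. TDH1 and TDH3, ENO1 and ENO2, and the PDC genes are close in sequence, and how far their probe sets share signal was not tested.

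CDC19 was the exception in this branch. It read 13.13, 13.17 and 13.02 on the anaerobic arrays, 12.61, 12.39 and 11.93 at 1%, 12.09, 12 and 12.72 at 5%, and 12.57, 12.48 and 12.41 at 20% oxygen. All 9 arrays with oxygen lay below all 3 anaerobic arrays, and the oxygenated groups overlapped each other. CDC19 fell 1.74-fold at 1% (-0.80 ± 0.23, 95% interval -1.29 to -0.30, adjusted p = 0.0369, limma) and 1.78-fold at 5% (-0.83 ± 0.23, -1.33 to -0.33, adjusted p = 0.0287). At 20% oxygen its difference was -0.61 (-1.11 to -0.12), which was not called (adjusted p = 0.118). The call at 1% was lost without any one of the anaerobic arrays 1, 2 and 3 (adjusted p = 0.0882, 0.129 and 0.084) or without 1% oxygen array 3, which also took the difference to -0.61 (adjusted p = 0.113), and in a fit of only the 1% and anaerobic groups (0.0596). The call at 5% was lost without any one of the anaerobic arrays (adjusted p = 0.0743, 0.103 and 0.0686) or without 5% oxygen array 1 or 2 (0.104 and 0.115).

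PYK2, a second pyruvate kinase known to be repressed by glucose, had differences of -0.42, -0.50 and -0.14 at 1%, 5% and 20%, none of them called (adjusted p = 0.268, 0.207 and 0.799). GPM2 and GPM3, homologs of GPM1 that are not thought to supply mutase activity, differed by -0.26 to 0.44, and none of these differences was called.

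**Figure D3:**
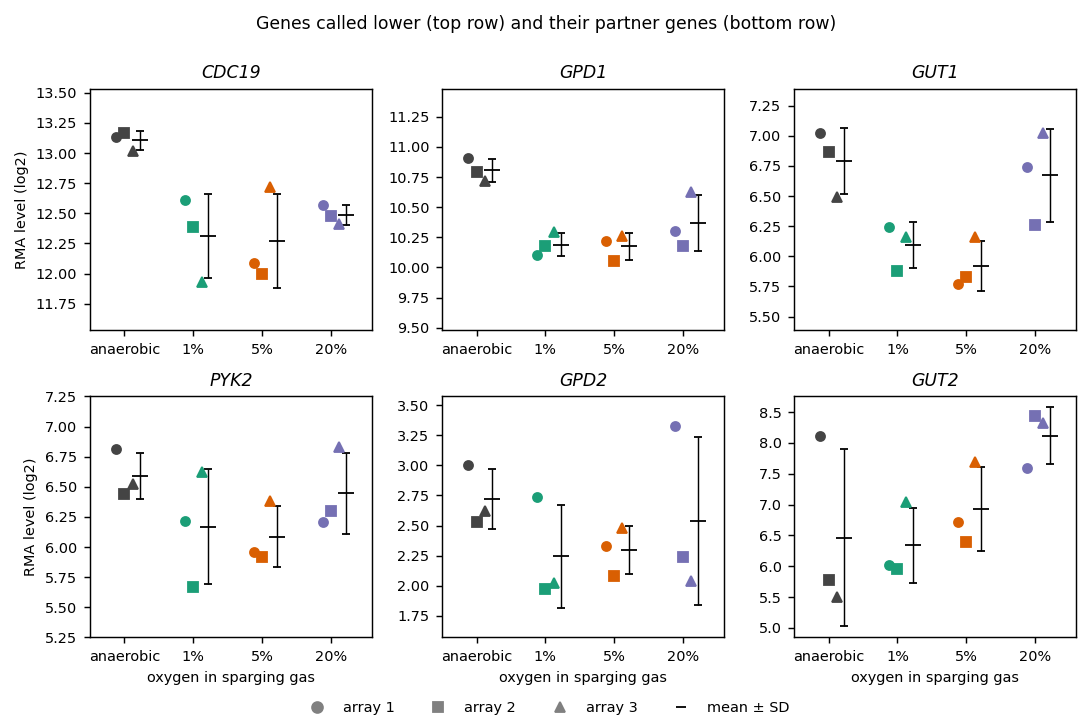
Log2 levels on each array (symbols) with the mean ± SD of 3 arrays (bars) for the 3 called genes (top row) and a partner gene of each (bottom row), by oxygen in the gas. CDC19 and GPD1 stay below the anaerobic arrays at every oxygen level, GUT1 is low at 1% and 5% only, and GUT2 is high on anaerobic array 1.

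Pyruvate decarboxylase is encoded by PDC1, the main isoform, by PDC5 and by the little-used PDC6. None of the 3 was called, and the arrays within the 20% oxygen group disagreed for all of them. PDC1 read 12.29, 12.43 and 12.24 on the anaerobic arrays, 12, 12.12 and 11.38 at 1%, 11.42, 11.62 and 11.74 at 5%, and 12.34, 11.34 and 11.11 at 20%. It lay below the anaerobic arrays on every array at 1% and 5% and on 20% arrays 2 and 3, but not on 20% array 1. Its differences were -0.49, -0.73 and -0.72 ± 0.30 (adjusted p = 0.258, 0.113 and 0.153, limma). Without 20% oxygen array 1 it was called lower at 20% (-1.09, adjusted p = 0.0226) and at 5% (-0.73, adjusted p = 0.0397).

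PDC5 showed the opposite on the same array. Its levels at 20% oxygen were 11.33, 12.66 and 12.74, and array 1 lay below all other arrays of the study, which ranged from 11.90 to 12.74. Its differences from anaerobic were 0.02, 0.31 and 0.04, with 95% intervals of -0.69 to 0.72, -0.40 to 1.01 and -0.66 to 0.75. Read within each array, PDC1 minus PDC5 was 0.28, 0.01 and 0.07 in anaerobic cultures, -0.30, -0.35 and -0.51 at 1%, -1.16, -0.80 and -0.79 at 5%, and 1.00, -1.32 and -1.62 at 20% oxygen. The balance moved away from PDC1 on every oxygenated array except 20% array 1. The exact permutation test over the 12 arrays gave an adjusted p of 0.567 for this pair. Without 20% oxygen array 1 it was 0.00234, and without any other single array 0.556 to 0.841. That array was picked out after its values were seen, so the smaller p is no independent test of the pair.

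PDC6 read 7.56, 6.46 and 6.24 in anaerobic cultures, 6.77, 7.30 and 7.65 at 1%, 7.96, 8.05 and 7.90 at 5%, and 9.56, 6.89 and 9.84 at 20% oxygen. Its group means rose in order, from 6.75 ± 0.71 to 8.76 ± 1.63 (SD, n = 3), but 20% array 2 fell among the anaerobic arrays. The difference at 20% was the largest of the 38 genes, 2.01 ± 0.63 (95% interval 0.65 to 3.37), and was not called (adjusted p = 0.0701, limma). Without 20% oxygen array 2 it was 2.95 (adjusted p = 0.00226), and the difference of 1.22 at 5%, where no array overlapped the anaerobic arrays, was then called as well (adjusted p = 0.031).

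**Figure D4:**
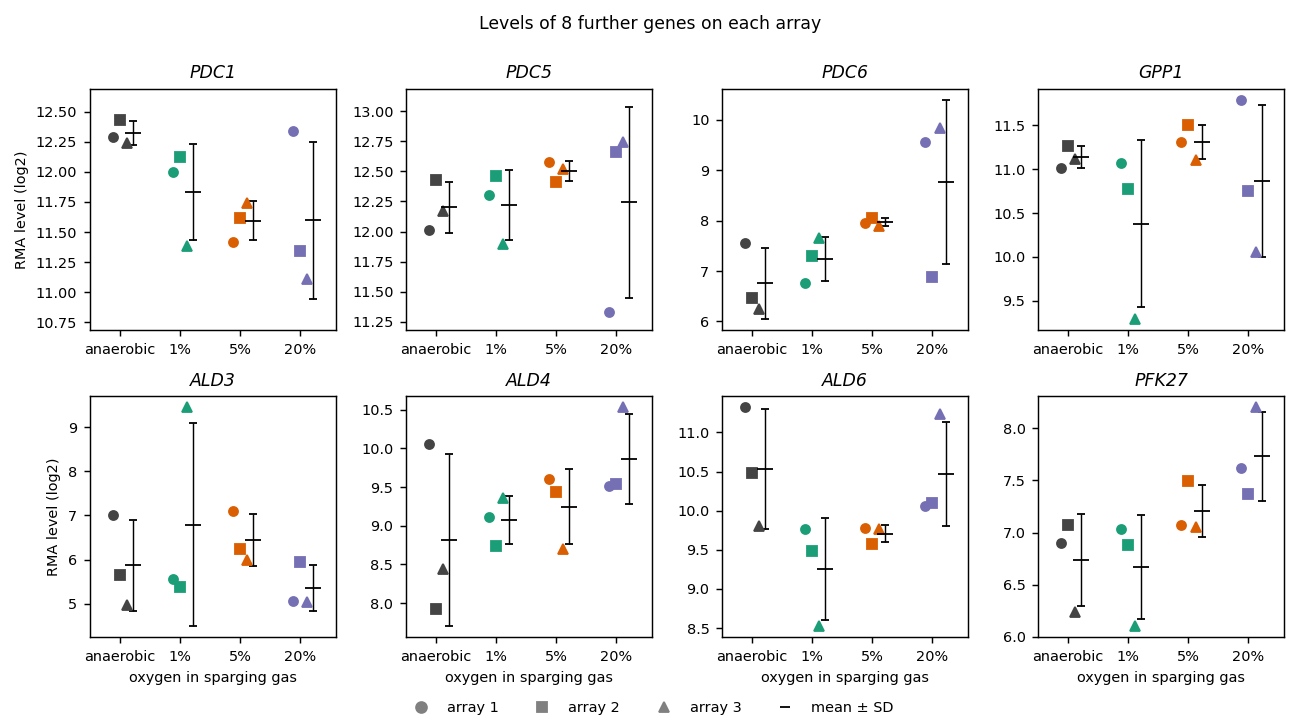
Log2 levels on each array (symbols) with the mean ± SD of 3 arrays (bars) for 8 further genes, by oxygen in the gas; these genes were chosen after their values were seen. In PDC1 and PDC5 the array apart is 20% array 1, in PDC6 it is 20% array 2, in ALD4 anaerobic array 1, and in ALD3 and GPP1 1% array 3.

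GCR1 and GCR2 act together to activate transcription of glycolytic genes. GCR1 differed from anaerobic by -0.05, 0.23 and 0.20, none of them called. GCR2 read 5.65, 5.84 and 5.34 in anaerobic cultures, 5.11, 5.05 and 4.44 at 1%, 4.92, 5.02 and 4.55 at 5%, and 5.62, 4.70 and 5.30 at 20% oxygen. It is dim, among the lowest 25% of all genes by mean level, and RMA compresses differences at such levels. All its arrays at 1% and 5% lay below the anaerobic arrays, by -0.75 and -0.78 ± 0.27, and neither was called (adjusted p = 0.0772 and 0.0688, limma). The difference at 5% was called without 1% oxygen array 3 (adjusted p = 0.0371) or without 20% oxygen array 2 (0.0478).

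In the glycerol branch, GPD1 and GPD2 reduce dihydroxyacetone phosphate to glycerol 3-phosphate, and the phosphatases GPP1 and GPP2 release glycerol. GPD1 read 10.91, 10.79 and 10.72 in anaerobic cultures, 10.10, 10.18 and 10.29 at 1%, 10.22, 10.05 and 10.26 at 5%, and 10.30, 10.18 and 10.63 at 20% oxygen. Every array with oxygen lay below every anaerobic array, and the 3 oxygenated groups overlapped. GPD1 fell 1.54-fold at 1% (-0.62 ± 0.17, 95% interval -1 to -0.24, adjusted p = 0.0344, limma) and 1.55-fold at 5% (-0.63 ± 0.17, -1.01 to -0.25, adjusted p = 0.0288). At 20% the difference was -0.44 (-0.82 to -0.06) and was not called (adjusted p = 0.143). The call at 1% was lost without any one of the 6 arrays compared, with an adjusted p of 0.0525 to 0.0997 except without anaerobic array 2 (0.118), and in a fit of only the 1% and anaerobic groups (0.0553). The call at 5% was lost without any one of the anaerobic arrays 1, 2 and 3 (0.0944, 0.0933 and 0.0706) or without 5% oxygen array 1 or 2 (0.0729 and 0.106).

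GPD2 is known as the isoform that rises when oxygen is lacking. Its probe set was dim, at 1.97 to 3.33 on all arrays, and RMA compresses differences at such levels. Its differences of -0.47, -0.42 and -0.18 were not called, which at this level says little about its response. GPP1 read 11.07, 10.78 and 9.29 at 1% oxygen and 11.79, 10.75 and 10.06 at 20%. This was a wide spread beside 11.02, 11.27 and 11.12 in anaerobic cultures and 11.31, 11.50 and 11.11 at 5%. Its differences of -0.76, 0.17 and -0.27 were not called. That at 1% leans on 1% oxygen array 3, which stood at -1.64 from the mean of its partners. The differences of GPP2, the osmotically induced phosphatase, were not called either (0.32, 0.46 and -0.18).

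GUT1 and GUT2 lead glycerol back into metabolism, GUT1 as the kinase and GUT2 as the mitochondrial glycerol-3-phosphate dehydrogenase, which passes electrons to the respiratory chain. GUT1 read 7.02, 6.87 and 6.49 in anaerobic cultures, 6.24, 5.88 and 6.16 at 1%, 5.77, 5.83 and 6.16 at 5%, and 6.74, 6.26 and 7.02 at 20% oxygen. All arrays at 1% and 5% lay below all anaerobic arrays, while those at 20% overlapped them. GUT1 fell 1.83-fold at 5% (-0.87 ± 0.23, 95% interval -1.38 to -0.37, adjusted p = 0.0254, limma). Its difference of -0.70 at 1% was not called (adjusted p = 0.0585), and that of -0.12 at 20% had a 95% interval of -0.63 to 0.39. The step from 5% to 20% was 0.75 with arrays that did not overlap, the only step of the 38 genes with an unadjusted p under 0.05 (0.00706, adjusted p = 0.999). The call at 5% was lost without anaerobic array 1 or 2 (adjusted p = 0.0882 and 0.0937) or without 5% oxygen array 1 or 2 (0.0898 and 0.0888). The difference at 1% was called without 20% oxygen array 2 or without 20% oxygen array 3 (0.047 in both).

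GUT2 ran differently. It read 8.12, 5.77 and 5.50 in anaerobic cultures, 6.02, 5.96 and 7.04 at 1%, 6.71, 6.39 and 7.69 at 5%, and 7.59, 8.44 and 8.32 at 20% oxygen. The 20% arrays lay above every other array except anaerobic array 1 and 5% array 3. The difference at 20% was 1.65 ± 0.60 (95% interval 0.34 to 2.97), which was not called (adjusted p = 0.111, limma). Without anaerobic array 1 it was 2.48 and called (adjusted p = 0.00781). At 5% its difference was 0.47, and between -0.02 and 1.30 with 1 array left out, the ends being without anaerobic arrays 3 and 1. The exact permutation test of the within-array difference of GUT1 and GUT2 over the 4 groups did not pass (p = 0.0956, adjusted p = 0.215).

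The acetate branch holds the cytosolic acetaldehyde dehydrogenases ALD6, ALD2 and ALD3, the mitochondrial ALD4 and ALD5, and the acetyl-CoA synthetase ACS2. None of the 6 was called. ALD6, the main cytosolic enzyme on sugar, read 11.32, 10.48 and 9.80 in anaerobic cultures, 9.76, 9.49 and 8.52 at 1%, 9.78, 9.58 and 9.76 at 5%, and 10.06, 10.10 and 11.23 at 20% oxygen. All arrays at 1% and 5% lay below the anaerobic arrays, of which the lowest was close to the 5% arrays, and those at 20% overlapped them. Its difference of -1.28 ± 0.43 at 1% (95% interval -2.20 to -0.35) was the largest of the 38 genes in that comparison and was not called (adjusted p = 0.0586, limma). It was called without 1% oxygen array 1 (-1.53, adjusted p = 0.0486) or without 20% oxygen array 3 (adjusted p = 0.0461).

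ALD4 read 10.06, 7.93 and 8.44 in anaerobic cultures, 9.11, 8.74 and 9.36 at 1%, 9.61, 9.43 and 8.70 at 5%, and 9.51, 9.54 and 10.53 at 20% oxygen. Its group means rose in order, and anaerobic array 1 lay above all other arrays but 20% array 3. The difference at 20% was 1.05 ± 0.48 (95% interval 0.00 to 2.09, adjusted p = 0.198, limma), and without anaerobic array 1 it was 1.67 and called (adjusted p = 0.0278). ALD2, a stress-induced enzyme, was steady in anaerobic cultures (6.84 ± 0.08, SD, n = 3) and stood at 7.47 ± 0.46 at 20%, a difference of 0.63 that was not called (adjusted p = 0.107), although its arrays did not overlap.

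ALD3, the adjacent stress-induced gene in the same family, had the largest within-group SD of the 38 genes, 1.32. It read 9.45 on 1% oxygen array 3 and 5.55 and 5.37 on its partners, and all other arrays lay between 4.98 and 7.10. ALD5 differed from anaerobic by -0.65, -0.03 and 0.52, and ACS2 by -0.36, -0.05 and -0.08, none of them called. The 95% intervals of ACS2 lay between -0.92 and 0.50 in all 3 comparisons.

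A total of 18 pairs of isoenzymes or partner genes were compared through their difference within each array, which asks whether 1 member gained on the other between groups and not which is more abundant. None passed after adjustment over the 18 pairs (exact permutation test, smallest adjusted p = 0.162), although the test can reach 6.49e-05, and 5 pairs had an unadjusted p under 0.05. PDC1 minus PDC6 moved by -0.97, -1.95 and -2.73 from anaerobic to 1%, 5% and 20% (exact permutation p = 0.0292). Its adjusted p was 0.0222 without 20% oxygen array 2 and 0.167 to 0.359 without any other single array. ALD4 minus ALD6 lay above the anaerobic values on all 9 oxygenated arrays, moving by 1.54, 1.26 and 1.12 (exact permutation p = 0.0384). PFK26 minus PFK27 moved by -1.23 at 20% oxygen (exact permutation p = 0.0449). GLK1 minus EMI2 (exact permutation p = 0.0417) and GCR1 minus GCR2 (exact permutation p = 0.0275) did not overlap the anaerobic values at 1% and 5%. PFK1 minus PFK2 had an adjusted p of 0.162 with all arrays and 0.045 without 20% oxygen array 1. Without any other single array it was 0.167 to 0.397.

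Of 42 further genes around these branches, in 6 lists, 1 rose and 6 fell at 1% oxygen, 2 rose and 4 fell at 5%, and 2 fell at 20%. That is 16.7%, 14.3% and 4.76% of them, beside 16.4%, 16.3% and 7.91% of all genes. PYC1, a pyruvate carboxylase that feeds oxaloacetate from pyruvate, fell in all 3 comparisons, by -1.26 ± 0.28, -1.68 ± 0.28 and -1.09 ± 0.28 (adjusted p = 0.018, 0.00334 and 0.0358, limma). Its anaerobic levels of 9.58, 10.40 and 9.63 stood above all 9 oxygenated arrays, which lay between 8.02 and 9.25. Of its 3 calls, that at 5% held whichever single array was left out. That at 1% was lost without anaerobic array 2 (adjusted p = 0.0865), and that at 20% without anaerobic array 2 or 3, 5% array 1 or 2 or 20% array 1 or 2 (0.0503 to 0.154).

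DAK1, a dihydroxyacetone kinase that acts in glycerol breakdown, fell in all 3 comparisons as well, by -0.76, -0.89 and -0.91 ± 0.23 (adjusted p = 0.0426, 0.0213 and 0.0319). Each of these calls was lost without any one of the anaerobic arrays, and also without each 1% array at 1%, without 5% array 2 or 3 at 5%, and without 20% array 1 or 2 at 20% (adjusted p up to 0.115, 0.096 and 0.131). MIG1, a repressor of glucose-repressed genes, fell by -2.04 at 1% and -2.46 ± 0.52 at 5% (adjusted p = 0.0258 and 0.00874), and its probe set was dim by its mean over all arrays (5.42, range 3.52 to 7.28). At 20% its difference of -1.71 was not called (adjusted p = 0.0651). The call at 5% held whichever single array was left out, and that at 1% was lost without any one of the anaerobic arrays or 1% array 3 (up to 0.0897).

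In the acetate lists, ACH1, a mitochondrial enzyme that transfers CoA to acetate, fell at both 1% and 5%. The differences were -1.11 ± 0.28 (adjusted p = 0.0253, limma) and -1.32 ± 0.28 (adjusted p = 0.00907). The call at 5% held whichever single array was left out. At 20% its difference of -0.93 was not called (adjusted p = 0.0651). HAA1, a transcription factor of the response to weak acids, fell at 1% by -1.12 ± 0.36 (adjusted p = 0.0497), and ACS1, the acetyl-CoA synthetase known from respiratory growth, rose at 1% by 0.76 ± 0.23 (adjusted p = 0.044). Neither was called at 5% (-1.08 and 0.27, adjusted p = 0.0582 and 0.46) or at 20% (-0.76 and 0.39, adjusted p = 0.207 and 0.322). Each of the 2 calls at 1% was lost in 8 of the 12 fits that left out 1 array, with an adjusted p of up to 0.159 and 0.132, both without 1% oxygen array 3. The other arrays that ended them were all 3 anaerobic arrays and 5% arrays 1 and 2 for both genes, 20% arrays 1 and 3 for HAA1, and 1% array 2 and 20% array 2 for ACS1. At 5%, ADH3, the mitochondrial alcohol dehydrogenase, rose by 0.67 ± 0.16 (adjusted p = 0.0158) and HOG1, the kinase of the osmotic response, by 0.68 ± 0.17 (adjusted p = 0.0208). At 1% and 20% the differences were 0.35 and 0.56 for ADH3 (adjusted p = 0.14 and 0.0525) and 0.40 and 0.42 for HOG1 (0.123 and 0.153). None of these was called. The ADH3 call was lost without any one of the anaerobic arrays or 5% array 1 or 2 (up to 0.0636), and the HOG1 call without anaerobic array 2 or 3 or 5% array 1 or 2 (up to 0.106).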

How the data were processed

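The 12 arrays measure RNA of EC1118 chemostat cultures in 4 oxygen groups of 3. The deposited table holds log2 values of 5716 probe sets, made by the authors with RMA per the submitters' processing notes. RMA corrects background, puts the arrays on 1 scale and combines the probes of each set. RMA's version and settings were not given in the sources used here, and the log2 scale was read from the range of the values. Of these probe sets, 5498 carried 1 gene in the platform annotation. The other 218 carried no single gene and were left out. For 47 genes with several probe sets the one with the highest mean was kept, leaving 5449 genes. The 1362 genes with a mean under 5.84 were marked dim.

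A fit of group means over the 12 arrays was made with limma (version 3.58.1, under R 4.3.3) (8 residual and 4.11 prior degrees of freedom), with p-values adjusted by Benjamini and Hochberg over all 5449 genes and called under 0.05. Isoform pairs were tested by exact permutation over 369600 assignments, adjusted over the 18 pairs. The number of arrays limits the precision. The fit and the pair test were tested on simulated data.

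The 38 genes, the lists and the pairs were chosen with earlier results of these data known. A listed gene got its value on every array if it was called. PFK27, PDC1, PDC5, PDC6, GCR2, GPP1, GUT2, ALD3, ALD4 and ALD6 are also shown in full or in part and were chosen after their values were seen. Genes outside the 38 came from fixed lists. A gene was named if it was among the 3 largest called rises or the 3 largest called falls in at least 1 comparison with the anaerobic group. Its other calls against the anaerobic group are printed too. Alternatives were quantile and median scaling, no dim genes, the mean of probe sets, trended and robust priors, a replicate block, a fit of only 2 groups, a 2-fold minimum, leaving out each array, and leaving out both arrays that lay apart in an earlier analysis. No sequence is printed.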

Additional observations from a re-analysis of the deposited data

How the results depend on the processing

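The directions of all values printed as called in the main fit held under every alternative run, and the counts rest on few genes. Under quantile and median scaling, the mean of probe sets, both other priors and without dim genes, the counts of listed genes called at 1%, 5% and 20% stayed at 2, 3 and 0. The F test, which called 0, called 1 under quantile scaling (CDC19) and 2 with a trended prior (CDC19 and GPD1). With only the 2 groups compared, 0 were called at 1%, 6 at 5% and 0 at 20%, beside 8.2%, 29.4% and 10.5% of all genes. The 6 at 5% were CDC19, PDC1, GCR2, GPD1 and GUT1, all lower, and PDC6, higher. In the main fit no listed gene was both called and at least 2-fold different, which leaves 0 at 1% and 0 at 5%. Leaving out 1 array in turn gave 0 to 4 at 1%, 0 to 5 at 5%, 0 to 2 at 20%, 0 in both steps, 0 to 3 in the F test and 0 to 2 isoform pairs. Of all genes these fits called 0.661% to 18.1% at 1%, 7.34% to 23.9% at 5%, 2.81% to 13.9% at 20% and 1.84% to 13.7% in the F test. Without both arrays that lay apart (anaerobic array 1 and 1% oxygen array 3) 0 were called at 1%, 2 at 5% (CDC19 lower, GUT2 higher), 4 at 20% (PFK27, PDC6, GUT2 and ALD4, all higher) and 1 in the F test, beside 2.84%, 19.1%, 10.1% and 9.01% of all genes. Over the 21 alternatives, 7 of the uncalled genes were called at least once in a comparison with the anaerobic group, and with GUT1 at 1% this concerned 11 differences. ALD5 was called in the F test only, without 20% oxygen array 2. Among the further pathway genes at 1%, DAK1 was not called under median scaling (adjusted p = 0.0515), nor HAA1 under median or quantile scaling (0.058 and 0.0589). The causes of these shifts were not tested.

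The replicate number as a block gave 0 calls at 1%, 1 at 5% (GUT1, adjusted p = 0.0407) and 0 at 20%, in both steps, in the F test and among the pairs. Of all genes it called 9.6%, 12.8% and 5.56% at 1%, 5% and 20% and 5.65% in the F test. CDC19 and GPD1 then had an adjusted p of 0.0671 and 0.0625 at 1% and 0.0554 and 0.0531 at 5%. Of 18 pairs of arrays with the same number, 2 had deviations that correlated over 0.1 (range -0.317 to 0.358), and 1 of 12 arrays correlated best with its own number, so the numbers were not taken to pair the samples.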
